A study of Mus musculus with 27 samples.

Results

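The genes described are 9 that mark fibroblasts or encode matricellular proteins: Dpt, Dcn, Lum, Pdgfra, Clec3b, Grem1, Postn, Thbs1 and Tgfbi. They were taken by symbol from a table of read counts, through the Ensembl identifier of each row, and are 9 of its 52550 genes. Their identifiers are ENSMUSG00000026574 (Dpt, chromosome 1), ENSMUSG00000019929 (Dcn, chromosome 10), ENSMUSG00000036446 (Lum, chromosome 10), ENSMUSG00000029231 (Pdgfra, chromosome 5), ENSMUSG00000025784 (Clec3b, chromosome 9), ENSMUSG00000074934 (Grem1, chromosome 2), ENSMUSG00000027750 (Postn, chromosome 3), ENSMUSG00000040152 (Thbs1, chromosome 2) and ENSMUSG00000035493 (Tgfbi, chromosome 13). All 9 were found in the table and all 9 passed the filter on low counts in every comparison. In the gut wall, fibroblasts lie between the epithelium and the muscle layers, where they lay down collagen matrix and send signals to the stem cells of the crypts. Matricellular proteins are secreted into the matrix without building its fibrils, and they bind integrins, growth factors and collagens. Several of these genes are known targets of transforming growth factor beta (TGF-beta), and Grem1 blocks bone morphogenetic proteins (BMPs), which drive epithelial differentiation.

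The RNA came from the ileum, cecum or colon of male C57BL/6 mice, 6 weeks old before an acclimatization of 7 days. The arsenic feed held 30 ug/g of total arsenic, of which 72.7% was sodium arsenite, 19.0% dimethylarsinic acid, 7.3% sodium arsenate and 1.0% monomethylarsonic acid, and it was given for 60 days. The control mice ate the standard feed. The 27 libraries were 5 arsenic and 4 control from the ileum, 5 arsenic and 4 control from the cecum, and 4 arsenic and 5 control from the colon. In the labels, arsenic libraries carry the numbers 11 to 15 and control libraries 1 to 5. These were whole-tissue libraries of poly-A RNA, so fewer cells of a type and less RNA per cell cannot be told apart.

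Libraries held 15717600 to 18208518 counts, and the 9 genes had 164 to 12179 reads each in a library. Levels are given in CPM, the counts of a gene relative to the scaled total of its library, as mean ± SD. Changes are log2 fold changes ± SE from edgeR's quasi-likelihood test. The SE was worked back from that test, as the size of the log2 change divided by the square root of the F statistic. CPM was scaled over all 27 libraries, while each fit scaled only the libraries it held. Log2 changes can therefore differ from the ratio of the CPM means. A gene was called where its p, adjusted by Benjamini-Hochberg over all genes tested, was under 0.05. Because the labels do not say which libraries came from the same mouse, p-values measure the spread between libraries. Aqp8, a water channel of the large intestine, was at 672.8 to 3939.9 CPM in 17 of the 18 cecum and colon libraries and at 2.68 CPM or less in the ileum. Some libraries stood apart. Colon control 1 had 68.0 CPM of Aqp8, and ileum arsenic 14 and 15 had 6.13 and 1.33 CPM of Fabp6, the bile acid carrier of the distal ileum, against 219 to 4271.9 CPM in the other ileum libraries. Ileum arsenic 13 and 15 had summed levels of 8 epithelial markers of 19248 and 20504 CPM, above the 13128 to 15914 CPM of the other ileum libraries.

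Promoter sequence was matched by symbol for 5 of the 9 genes, Dpt, Pdgfra, Grem1, Postn and Tgfbi. The windows come from RefSeq (GRCm38.p6), and each runs from 250 bases before to 50 bases after an annotated start. Those of 3 genes that rose in the arsenic cecum, and that of Grem1, which blocks BMPs, are printed here, 5′ to 3′ on the strand of the gene, with motif matches in capitals. Dpt lies at chr1:164796413-164796712 (plus strand), the downstream of the 2 Postn starts at chr3:54360857-54361156 (plus), Tgfbi at chr13:56609336-56609635 (plus) and Grem1 at chr2:113758599-113758898 (minus).
Dpt: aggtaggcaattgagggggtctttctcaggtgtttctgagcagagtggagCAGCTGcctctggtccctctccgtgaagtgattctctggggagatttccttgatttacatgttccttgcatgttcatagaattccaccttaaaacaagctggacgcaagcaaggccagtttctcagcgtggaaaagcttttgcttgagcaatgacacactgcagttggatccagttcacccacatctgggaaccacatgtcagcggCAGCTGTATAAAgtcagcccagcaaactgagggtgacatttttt
Postn: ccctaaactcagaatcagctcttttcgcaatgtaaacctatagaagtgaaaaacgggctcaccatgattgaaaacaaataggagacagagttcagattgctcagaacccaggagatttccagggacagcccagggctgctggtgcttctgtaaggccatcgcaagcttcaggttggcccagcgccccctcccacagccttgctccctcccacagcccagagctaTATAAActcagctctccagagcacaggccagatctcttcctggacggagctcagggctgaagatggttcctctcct
Tgfbi: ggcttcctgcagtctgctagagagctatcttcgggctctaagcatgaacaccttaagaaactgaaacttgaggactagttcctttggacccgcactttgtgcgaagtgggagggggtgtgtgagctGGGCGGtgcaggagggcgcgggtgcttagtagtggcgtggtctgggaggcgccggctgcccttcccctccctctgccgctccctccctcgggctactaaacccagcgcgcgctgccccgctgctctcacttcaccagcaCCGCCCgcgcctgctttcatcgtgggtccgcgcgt
Grem1: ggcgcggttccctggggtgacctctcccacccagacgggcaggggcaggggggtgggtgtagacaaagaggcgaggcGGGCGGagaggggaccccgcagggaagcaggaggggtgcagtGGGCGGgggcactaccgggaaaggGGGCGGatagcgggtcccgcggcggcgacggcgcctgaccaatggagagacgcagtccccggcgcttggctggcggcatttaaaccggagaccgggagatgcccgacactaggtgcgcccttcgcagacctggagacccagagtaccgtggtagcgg
Motifs were searched on both strands, and none contains another. Of the 32851 windows of all genes, 13.6% hold TATAAA (the TATA box) and 35.7% hold GGGCGG (the GC box). The AP-1 motif TGANTCA occurs in 7.81% of them, the TEAD motif GGAATG in 14.7%, the E-box CAGCTG in 16.3% and the CArG box in 1.63%. The SMAD motifs GTCTAGAC and, in its shorter form, CAGACA occur in 0.213% and 21%. The Postn window holds TATAAA, its first base 26 before the start, and the Dpt window holds TATAAA, its first base 12 after the start, directly behind a CAGCTG, with another CAGCTG 200 bases before the start. The Grem1 window holds GGGCGG 3 times and the Tgfbi window holds it 2 times, counting both strands. The Pdgfra window and that of the upstream Postn start held none of the motifs. The G and C content was 70.7% in the Grem1 window, 63.3% in that of Tgfbi, 53% in that of Postn and 48.7% in that of Dpt, against a median of 52.7% over all windows. These matches are a description of the letters and were not tied to the changes below.

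To compare genes with each other, CPM was divided by the length of the merged exons in kilobases. Tgfbi, a secreted protein that binds integrins and collagens, was the most abundant per kilobase in the ileum, at 125 ± 30.1 CPM per kb on arsenic feed (n = 5) and 89.4 ± 18.8 on control feed (n = 4). In the cecum it was at 11.4 ± 1.65 CPM per kb on arsenic feed and 8.39 ± 1.39 on control feed. Dpt, encoding dermatopontin, which binds decorin and collagen fibrils, led in the cecum and in the colon. Its level there was 55.3 ± 4.16 CPM per kb on arsenic and 41.7 ± 4.69 on control feed in the cecum, and 88.2 ± 13 on arsenic and 83.0 ± 14 on control feed in the colon. Pdgfra, the receptor for platelet-derived growth factors (PDGFs), was lowest or next to lowest per kilobase in every group, at 2.37 to 4.53 CPM per kb, and Thbs1 was the lowest in the ileum, at 3.25 ± 0.562 on arsenic and 3.24 ± 0.471 CPM per kb on control feed. The order of the genes per kilobase therefore differed between regions, with Tgfbi first in the ileum and behind Dpt, Dcn, Clec3b and Postn in the cecum.

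**Figure D1:**
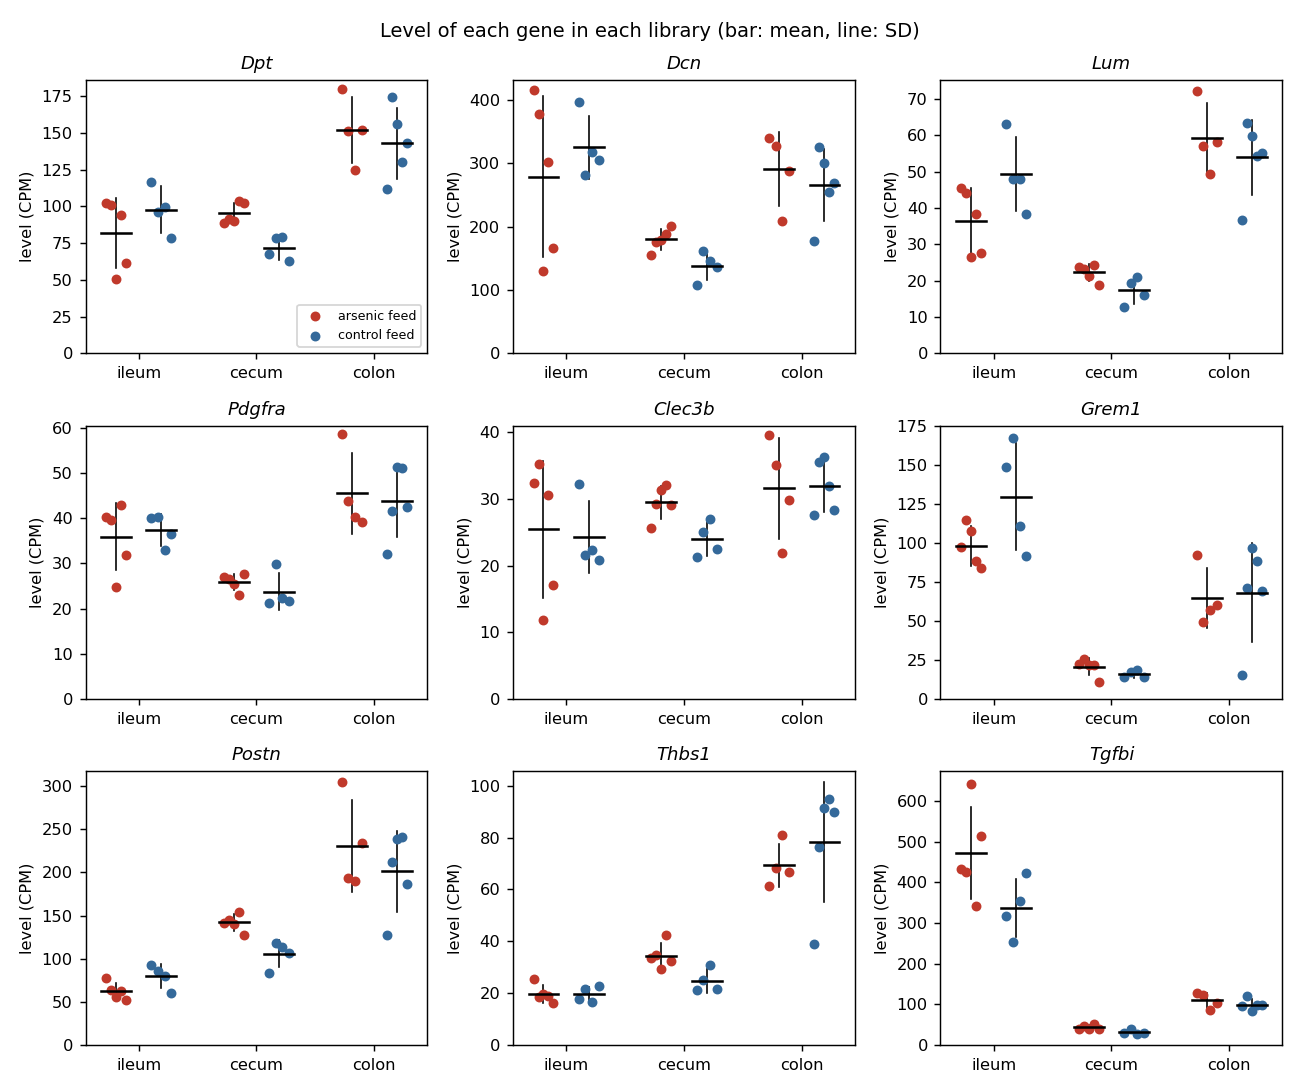
Level of each of the 9 genes in each library, in CPM on axes that start at 0, with arsenic feed (red) left of control feed (blue) in each region. Bars are group means and lines are SD, with 4 or 5 libraries per group. Grem1 and Tgfbi are lowest in the cecum on both feeds, and the arsenic points of Dpt and Postn lie above every control point in the cecum.

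In the cecum, 7 of the 9 genes were higher on arsenic feed and 0 were lower. They were Dpt, Dcn, Lum and Clec3b of the fibroblast genes and Postn, Thbs1 and Tgfbi of the matricellular genes, with fold changes of 1.27 to 1.44. Over all 15590 genes tested there, 25.2% were called, 11.3% higher and 13.9% lower. The median log2 change of the 9 genes was 0.42, against 0.02 for all genes tested. Upper-quartile scaling left 7 of the 9 higher and turned the split of all called genes to 2448 higher and 1627 lower, against 1768 and 2165 with the main scaling. With all 27 libraries in 1 fit, which shares the spread over the 3 regions, 0 of the 9 were called in the cecum, at edgeR adjusted p = 0.0885 to 0.436 for the 7 genes and log2 changes of 0.30 to 0.48. That fit called 11.4% of 17763 genes in the cecum. The common coefficient of biological variation, a measure of the spread between libraries of a group, was 0.13 in the fit of the cecum alone and 0.221 in the fit of all libraries.

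Dpt was at 88.7, 91.4, 90.3, 104 and 102 CPM in the arsenic cecum libraries, against 67.4, 78.2, 79.2 and 62.7 CPM in the control libraries. Every arsenic library was above every control library, and the change was 0.45 ± 0.08 in log2 units (edgeR adjusted p = 0.000911). Dcn encodes decorin, a small leucine-rich proteoglycan that binds collagen and TGF-beta. It was at 156, 175, 179, 188 and 201 CPM on arsenic feed, against 108, 161, 146 and 137 CPM on control feed. The groups overlapped, since control 2 was above the lowest arsenic library, and the change was 0.42 ± 0.10 (edgeR adjusted p = 0.0123).

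Lum encodes lumican, a proteoglycan that spaces collagen fibrils. Its level was 23.9, 23.1, 21.2, 24.4 and 18.9 CPM in the arsenic cecum, against 12.8, 19.3, 21.1 and 16.1 CPM in the control cecum. Arsenic 15 lay below 2 control libraries, and the change was 0.41 ± 0.13 (edgeR adjusted p = 0.0349). This call was the least stable of the 7. It was lost in 6 of 9 fits that left out 1 library, those without control 1 or 5 or arsenic 11, 12, 13 or 14, at log2 changes of 0.28 to 0.42 and edgeR adjusted p = 0.0569 to 0.0986. Clec3b encodes tetranectin, a secreted protein that binds plasminogen. It was at 25.7, 29.2, 31.2, 32.1 and 29.1 CPM on arsenic feed, against 21.3, 25.1, 26.9 and 22.5 CPM on control feed. The groups overlapped only at arsenic 11 and control 4, and the change was 0.34 ± 0.09 (edgeR adjusted p = 0.0123).

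Pdgfra and Grem1 did not pass the test. Pdgfra was at 27, 26.6, 25.4, 22.9 and 27.6 CPM in the arsenic cecum, against 21.1, 29.8, 22.4 and 21.7 CPM in the control cecum. Control 2 was the highest of the 9 libraries, and the log2 change of 0.16 ± 0.10 (edgeR adjusted p = 0.268) became 0.29 (adjusted p = 0.0288) without it. Grem1, which encodes gremlin 1, a secreted BMP antagonist, was at 22.5, 25.8, 22.1, 21.7 and 11.2 CPM on arsenic feed, against 14.1, 17.6, 18.8 and 14.3 CPM on control feed. Of the arsenic libraries, 4 were above all controls and arsenic 15 was below all of them. The log2 change was 0.40 ± 0.21 (edgeR adjusted p = 0.206), and 0.55 (adjusted p = 0.00206) without arsenic 15.

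Of the matricellular genes, Postn encodes periostin, which binds integrins and collagen. It was at 142, 145, 141, 155 and 128 CPM in the arsenic cecum, against 83.8, 118, 114 and 107 CPM in the control cecum. The groups did not overlap, and the change was 0.46 ± 0.09 (edgeR adjusted p = 0.00272). Groups without overlap were found in 2 of the 9 genes, Dpt and Postn, a share near the 22.2% of all genes tested in the cecum. Thbs1 encodes thrombospondin 1, which can activate latent TGF-beta. It was at 33.5, 34.5, 29.4, 42.5 and 32.4 CPM on arsenic feed, against 21.1, 25.1, 30.9 and 21.6 CPM on control feed. Only control 4 reached into the arsenic range, and the log2 change of 0.52 ± 0.12 was the largest of the 9 (edgeR adjusted p = 0.00775). Tgfbi was at 38.4, 47.1, 38.8, 52.1 and 38.8 CPM on arsenic feed, against 30.2, 39.4, 28 and 29 CPM on control feed. Control 2 overlapped the arsenic libraries, and the change was 0.48 ± 0.12 (edgeR adjusted p = 0.00931). Dpt, Dcn, Clec3b, Postn, Thbs1 and Tgfbi kept their calls in each of the 9 fits that left out 1 library.

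**Figure D2:**
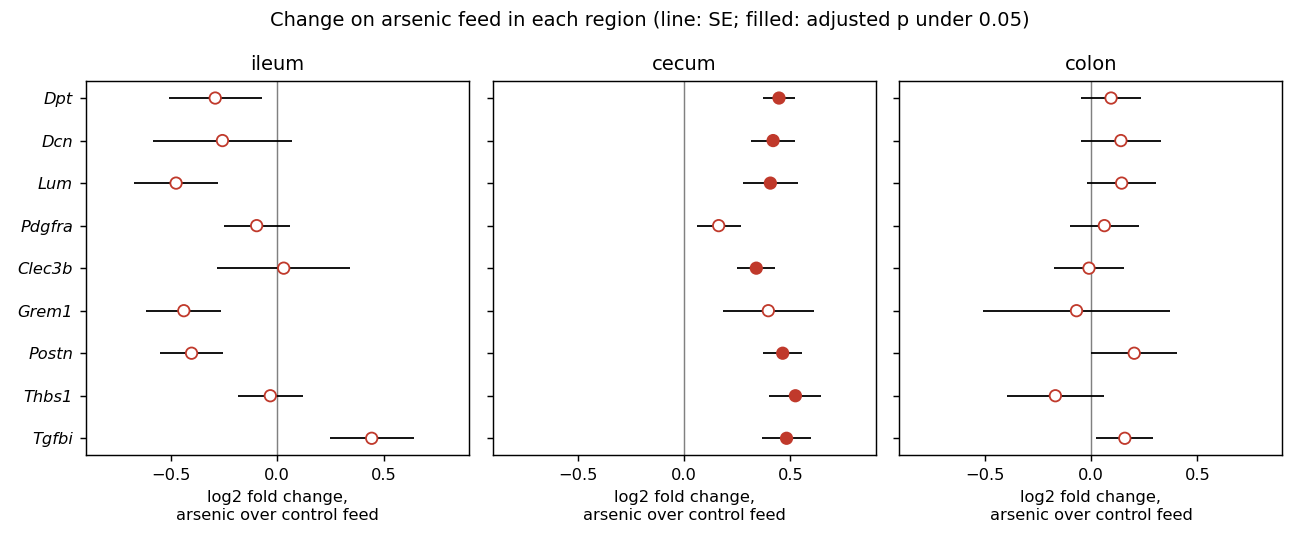
Log2 fold change, arsenic over control feed, of each gene in the ileum, cecum and colon; lines are SE and filled points have an edgeR adjusted p under 0.05. In the cecum 7 of 9 points are filled, all to the right of 0, and in the ileum and colon none is.

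Markers of other cell types were counted in the cecum too, where 11.3% of all genes tested were higher and 13.9% lower. The summed level of 8 epithelial markers was 18229 to 21620 CPM on arsenic feed, against 21457 to 23687 CPM on control feed, with 3 of the 8 lower and 0 higher. The sum of 8 smooth muscle markers was 2917.5 to 4916.6 CPM on arsenic feed, against 2537.7 to 3509 CPM on control feed, with 3 of 8 higher and 0 lower. The sum of 8 endothelial markers was 78.3 to 94.0 CPM on arsenic feed, against 65.9 to 74.4 CPM on control feed, with 2 of 8 higher. Of 6 pericyte markers 2 were higher, with sums of 254 to 385 CPM on arsenic feed, against 213 to 281 CPM on control feed. Of 6 lymphocyte markers 2 were higher, with sums of 35.8 to 186 CPM on arsenic feed, against 26 to 58.6 CPM on control feed. Of 6 macrophage markers 1 was lower, with sums of 81.0 to 99.4 CPM on arsenic feed, against 80.3 to 108 CPM on control feed. None of 5 mesothelial, 6 adipocyte, 6 glial and neuronal or 3 interstitial cell of Cajal markers was called, and no marker on these lists was at 0 over a whole group. The part of the cell type markers in the change of the 9 genes was not tested.

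The related gene lists were counted in the same way in the cecum, where 25.2% of all genes tested were called, 11.3% higher and 13.9% lower. Of 28 other fibroblast genes, 7 were higher and 0 lower, with a median log2 change of 0.24. Among them were the chemokine genes Cxcl12, with 25.4 ± 2.21 CPM in the arsenic cecum against 17.7 ± 0.962 CPM in the control cecum, and Ccl11, with 15.8 ± 1.21 CPM in the arsenic cecum against 10.6 ± 2.21 CPM in the control cecum, and the microfibril gene Mfap4, with a log2 change of 0.77 ± 0.19 (edgeR adjusted p = 0.00803). Of 8 other small leucine-rich proteoglycans, 3 were higher, which were Ogn (0.53 ± 0.09), Bgn (0.25 ± 0.07) and Aspn (0.70 ± 0.22), and Chad was lower at -0.86 ± 0.26. Of 15 other matricellular genes, Cilp (1.19 ± 0.22) and Sparc (0.21 ± 0.07) were higher and Ccn1, an immediate early gene, was lower at -1.01 ± 0.27. In the fit of all 27 libraries, 2 of the other fibroblast genes stayed higher, and 0 of the proteoglycans and 0 of the other matricellular genes were called. The same fit called 11.4% of all genes in the cecum.

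Genes that signal to or from the 9 were also counted in the cecum. Of all genes tested there, 25.2% were called, 11.3% higher and 13.9% lower. Among 5 genes of PDGF ligands and receptors, the ligand Pdgfa was higher by 0.28 ± 0.07, with 54.6 ± 2.83 CPM in the arsenic cecum against 46.3 ± 3.23 CPM in the control cecum. Of 24 BMP pathway genes, 4 were higher and 4 lower. The target genes Id1 and Id3 changed by -0.75 ± 0.12 and -0.32 ± 0.09, the transducer Smad1 by -0.34 ± 0.08, the ligand Bmp3 by 1.01 ± 0.24 and Fstl1 by 0.28 ± 0.08. Of 15 stromal signals of the stem cell niche, 5 were higher and 0 lower, with the Hedgehog targets Gli1 at 5.44 ± 0.77 CPM in the arsenic cecum against 2.66 ± 0.369 CPM in the control cecum and Ptch1 at 29.9 ± 3.11 CPM in the arsenic cecum against 21.7 ± 3.44 CPM in the control cecum. Foxf1, a transcription factor of fibroblasts, was also higher, by 0.69 ± 0.17.

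Of 20 TGF-beta pathway genes, 3 were higher and 2 lower in the cecum. That count was near the share of all genes called there, 25.2%, with 11.3% higher and 13.9% lower. The receptor Tgfbr1 rose by 0.54 ± 0.09, the latent binding protein Ltbp4 by 0.44 ± 0.11 and the ligand Tgfb2 by 0.79 ± 0.20, and the inhibitors Smad7 and Skil changed by -0.41 ± 0.11 and -0.64 ± 0.17. Of 10 receptors for thrombospondin 1, 0 were higher and 3 lower, the integrin genes Itga6 (-0.36 ± 0.06), Itgav (-0.55 ± 0.10) and Itgb5 (-0.30 ± 0.06). The median log2 change was 0.31 for the niche genes, 0.08 for the BMP genes, 0.10 for the TGF-beta genes and -0.10 for the thrombospondin receptors. The fit of all 27 libraries called 4 higher and 0 lower of the niche genes, 1 and 1 of the BMP genes, 2 and 0 of the TGF-beta genes and 0 and 2 of the receptors. Of all genes, 11.4% were called in the cecum by that fit.

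**Figure D3:**
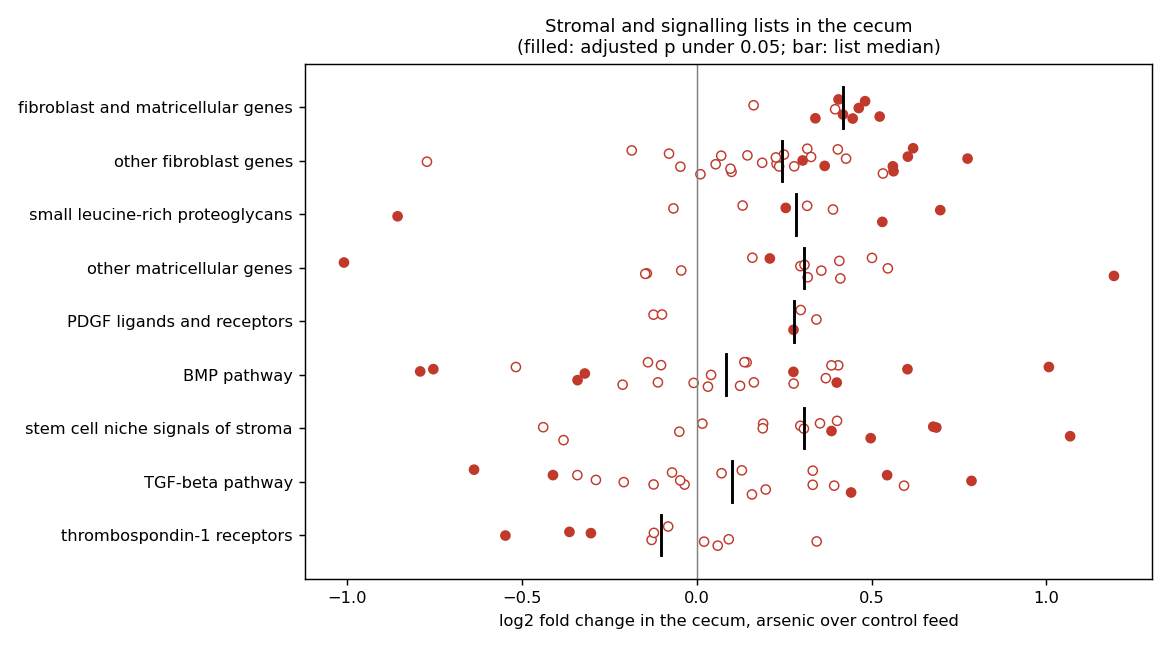
Log2 fold change in the cecum, arsenic over control feed, of the 9 genes (top row) and of the genes on 8 related lists; filled points have an edgeR adjusted p under 0.05 and bars are list medians. The 9 genes lie between 0.16 and 0.52, while the other lists spread to both sides of 0.

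In the ileum, 0 of the 9 genes were called on arsenic feed, where 7.30% of 16305 genes were, 4.02% higher and 3.28% lower. At an unadjusted p under 0.05, edgeR gave 4 of the 9, with Lum, Grem1 and Postn lower and Tgfbi higher, where 25% of all genes were under it, and DESeq2 called 0. Lum was at 45.4, 44.3, 26.4, 38.3 and 27.5 CPM in the arsenic ileum, against 63.1, 47.9, 48.0 and 38.3 CPM in the control ileum (-0.48 ± 0.20, edgeR adjusted p = 0.168). Grem1 was at 97.5, 114, 107, 88.3 and 83.8 CPM in the arsenic ileum, against 149, 167, 111 and 91.7 CPM in the control ileum (-0.44 ± 0.18, edgeR adjusted p = 0.152). For both genes the groups overlapped, with control 5, and for Grem1 also control 3, inside the arsenic range.

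Postn was at 77.0, 63.7, 55.4, 62.1 and 51.9 CPM in the arsenic ileum, against 93.2, 85.5, 80.5 and 60.4 CPM in the control ileum, and control 5 was again inside the arsenic range (-0.40 ± 0.15, edgeR adjusted p = 0.125). Tgfbi was at 434, 427, 643, 341 and 514 CPM on arsenic feed, against 317, 254, 355 and 424 CPM in the control ileum (0.44 ± 0.20, edgeR adjusted p = 0.193). Controls 3 and 5 lay inside the arsenic range of Tgfbi, and controls 1 and 2 below it. Tgfbi passed in the fit of all 27 libraries, at 0.48 and an edgeR adjusted p = 0.0451, where 16.3% of 17763 genes did. Of the related lists, Chad (-1.23 ± 0.33), Skil (-0.95 ± 0.22) and Itgav (-0.33 ± 0.09) were the genes called in the ileum, all lower. With all libraries in 1 fit Chad and Skil passed and Itgav did not (edgeR adjusted p = 0.102). That fit called 3 higher and 1 lower of the TGF-beta genes, 1 higher and 0 lower of the thrombospondin receptors, and 0 higher and 2 lower of the proteoglycans.

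The arsenic ileum libraries differed among themselves in the fibroblast genes. Dcn was at 416, 378, 130.1, 303 and 166 CPM in arsenic 11 to 15, against 397, 281, 317 and 305 CPM in the control libraries. Clec3b was at 32.3, 35.2, 11.8, 30.6 and 17.1 CPM on arsenic feed, against 32.2, 21.6, 22.3 and 20.9 CPM on control feed. Dpt was at 102, 101, 50.8, 94.2 and 61.6 CPM on arsenic feed, against 117, 96.2, 99.5 and 78.3 CPM on control feed. In all 3 genes, and also in Lum, Postn and Pdgfra, arsenic 13 and 15 were the lowest of the 9 libraries. In Grem1 and Thbs1 arsenic 15 was the lowest and arsenic 13 was not near it, at 107 and 19.5 CPM. The same 2 libraries had the highest epithelial sums and the highest Tgfbi, and mesothelial marker sums of 30.6 and 51.8 CPM, against 94.8 to 179 CPM in the other arsenic libraries and 101 to 148 CPM in the control libraries. Their adipocyte marker sums were 324.5 and 161 CPM, against 623.9 to 995 CPM in the other arsenic libraries and 357 to 679 CPM in the control libraries. The part of these differences in the ileum values was not tested. The log2 changes on arsenic feed were -0.29 ± 0.22 for Dpt, -0.26 ± 0.33 for Dcn, 0.03 ± 0.31 for Clec3b, -0.10 ± 0.16 for Pdgfra and -0.03 ± 0.15 for Thbs1. Without arsenic 13 and 15, and equally without arsenic 14 and 15, 0 of the 9 genes were called.

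In the colon, 0 of the 9 genes were called on arsenic feed, where edgeR called 0.649% of 16492 genes, 0.364% higher and 0.285% lower. None of the 9 had an unadjusted edgeR p under 0.05, where 14.6% of all genes did, and DESeq2 called 0. The log2 changes ran from -0.17 ± 0.23 for Thbs1 to 0.20 ± 0.20 for Postn, with Tgfbi at 0.16 ± 0.13, Dcn at 0.14 ± 0.19, Lum at 0.14 ± 0.16, Dpt at 0.09 ± 0.14, Pdgfra at 0.06 ± 0.16, Clec3b at -0.01 ± 0.17 and Grem1 at -0.07 ± 0.44. Thbs1 was at 61.5, 68.1, 80.9 and 66.9 CPM in the arsenic colon, against 38.9, 76.4, 91.3, 94.9 and 89.7 CPM in the control colon. Grem1 was at 92.5, 49.5, 57.0 and 60.2 CPM on arsenic feed, against 15.5, 71.3, 96.6, 88.4 and 69.3 CPM on control feed. Colon control 1, the library low in Aqp8, was the lowest of the 9 colon libraries in both genes and in Dcn, Lum, Dpt, Pdgfra and Postn. Without it, 0 of the 9 genes were called, and Thbs1 stood at -0.34 (edgeR adjusted p = 0.105). Of the related lists, 1 gene was called in the colon, the corepressor Tgif1 of the TGF-beta list, with 31.1 ± 3.19 CPM in the arsenic colon against 47.0 ± 4.93 CPM in the control colon (-0.59 ± 0.10, edgeR adjusted p = 0.0369).

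Whether the arsenic effect differed between regions was tested as an interaction in 1 fit of the 27 libraries. Between cecum and ileum, Postn and Lum passed, where 11.4% of 17763 genes did, 2.88% with a higher and 8.49% with a lower effect in the cecum. The effect on Postn was higher in the cecum by a log2 difference of 0.79 ± 0.24 (edgeR adjusted p = 0.0297) and that on Lum by 0.80 ± 0.26 (adjusted p = 0.042). Dpt was at 0.66 ± 0.24 (adjusted p = 0.0716) and Grem1 at 0.75 ± 0.46 (adjusted p = 0.319). The other differences were 0.60 ± 0.35 for Dcn, 0.48 ± 0.27 for Thbs1, 0.23 ± 0.32 for Clec3b, 0.18 ± 0.22 for Pdgfra and -0.04 ± 0.23 for Tgfbi. Neither call was stable to the choice of libraries: leaving out 1 library gave 0 to 3 of the 9 genes, and leaving out ileum arsenic 13 and 15 gave 0, with Postn at 0.67 (adjusted p = 0.102) and Lum at 0.58 (adjusted p = 0.143). Among single libraries, the count was 0 without ileum control 1 or 2, ileum arsenic 15, cecum control 1 or cecum arsenic 14. Lum alone was lost without ileum control 3, ileum arsenic 13 or 14, cecum control 5, cecum arsenic 11, 12 or 13 or colon arsenic 15, at adjusted p = 0.0504 to 0.0806. Upper-quartile scaling moved the median of all genes in this comparison to 0.15, against -0.01 with the main scaling, and the split of called genes to 1069 higher and 748 lower, against 511 and 1508. Under it Postn, Lum and Dpt passed, at 0.94, 0.95 and 0.81.

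Between colon and cecum, 0 of the 9 interactions passed, where 0% of all genes did. Thbs1 had an unadjusted edgeR p under 0.05, as did 7.28% of all genes, with an effect lower in the colon by -0.66 ± 0.26 (adjusted p = 0.572). Between colon and ileum 0 of 9 passed, where 2.25% of all genes did, 0.512% with a higher and 1.73% with a lower effect in the colon, and Lum and Postn had an unadjusted edgeR p under 0.05, at 0.57 ± 0.25 (adjusted p = 0.226) and 0.56 ± 0.23 (adjusted p = 0.202). The share of all genes under that unadjusted threshold was 17.4%. The other genes lay between -0.43 ± 0.47 (Grem1) and -0.07 ± 0.22 (Pdgfra) for colon against cecum, and between -0.33 ± 0.23 (Tgfbi) and 0.35 ± 0.35 (Dcn) for colon against ileum. DESeq2 called 0 of the 9 in both of these comparisons.

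The regions were compared within each feed. On control feed, 6 of the 9 genes were lower in the cecum than in the ileum and 0 were higher, where 54.9% of 16882 genes were called, 26.5% lower and 28.4% higher. Tgfbi was at 30.2, 39.4, 28 and 29 CPM in the control cecum, against 317, 254, 355 and 424 CPM in the control ileum (-3.42 ± 0.17, edgeR adjusted p = 1.17e-09). Grem1 was at 14.1, 17.6, 18.8 and 14.3 CPM in the control cecum, against 149, 167, 111 and 91.7 CPM in the control ileum (-3.01 ± 0.45, edgeR adjusted p = 0.000134). No library of one region reached those of the other in either gene. Lum (-1.52 ± 0.20), Dcn (-1.24 ± 0.18) and Pdgfra (-0.66 ± 0.15) did not overlap either, and Dpt (-0.45 ± 0.14) did, where 54.5% of all genes did not overlap. Clec3b, Thbs1 and Postn did not pass, at -0.03 ± 0.15, 0.32 ± 0.24 and 0.40 ± 0.19. The Dpt call was lost without ileum control 1 (edgeR adjusted p = 0.0617) or cecum control 5 (0.058), and Postn passed without cecum control 1 (0.049) or colon control 1 (0.0357).

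The arsenic libraries gave the same comparison in other mice. Again 6 genes passed, 4 of them lower in the cecum than in the ileum and 2 higher, where 52.2% of 17022 genes were called, 27.1% lower and 25% higher. Tgfbi changed by -3.46 ± 0.17, Grem1 by -2.26 ± 0.21, Lum by -0.72 ± 0.16 and Pdgfra by -0.48 ± 0.15. Postn was at 142, 145, 141, 155 and 128 CPM in the arsenic cecum, against 77.0, 63.7, 55.4, 62.1 and 51.9 CPM in the arsenic ileum, a change of 1.18 ± 0.14 (edgeR adjusted p = 4.05e-06). Thbs1 was higher by 0.79 ± 0.12, and its regions did not overlap either, as was so for 36.4% of all genes. Dcn, at -0.65 ± 0.27, did not pass (edgeR adjusted p = 0.0618) and did so without ileum arsenic 13 (-0.83, adjusted p = 0.00559) or 15 (-0.75, adjusted p = 0.029). Dpt and Clec3b stood at 0.21 ± 0.18 and 0.20 ± 0.26.

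Between colon and cecum, all 9 genes were higher in the colon on control feed, where 47.2% of all genes were called, 21.9% higher and 25.3% lower. The log2 changes ran from 0.42 ± 0.14 for Clec3b to 2.08 ± 0.42 for Grem1, and in 8 of the 9 genes no colon library reached into the cecum range, where 36.8% of all genes had regions without overlap. The Clec3b call (edgeR adjusted p = 0.0219) was lost without cecum control 1 (0.0731) or 5 (0.065) and, at 0.133, in the fit of all 27 libraries. Thbs1 was at 38.9, 76.4, 91.3, 94.9 and 89.7 CPM in the control colon, against 21.1, 25.1, 30.9 and 21.6 CPM in the control cecum (1.67 ± 0.23, edgeR adjusted p = 7.94e-05). Tgfbi changed by 1.66 ± 0.16, Lum by 1.65 ± 0.19, Dpt by 1.00 ± 0.14, Dcn by 0.95 ± 0.17, Postn by 0.93 ± 0.18 and Pdgfra by 0.89 ± 0.15. Grem1 overlapped through colon control 1, and its change was 2.35 without that library. On arsenic feed 8 of the 9 were higher in the colon, where 38.6% of all genes were called, 22.5% higher and 16.2% lower. Their changes ran from 0.76 ± 0.18 for Dpt to 1.73 ± 0.22 for Grem1, and Clec3b did not pass at 0.19 ± 0.27 (edgeR adjusted p = 0.627). Dcn, at 0.78 ± 0.29 (adjusted p = 0.0445), lost its call in 10 of 14 fits that left out 1 library, at adjusted p = 0.0528 to 0.141. The call held without ileum arsenic 11, 12 or 13 or colon arsenic 13. It was also lost with RLE scaling (0.0527), with upper-quartile scaling (0.0601) and without the filter on low counts (0.169).

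Against the ileum, the colon was higher in 4 genes and lower in 1 on control feed, where 52.2% of all genes were called, 27.7% higher and 24.5% lower. Thbs1 rose by 1.99 ± 0.23, Postn by 1.33 ± 0.19, Dpt by 0.55 ± 0.14 and Clec3b by 0.39 ± 0.14, and Tgfbi changed by -1.77 ± 0.15. Grem1 was at -0.93 ± 0.39 (edgeR adjusted p = 0.0635), and at -0.69 (adjusted p = 0.00553) without colon control 1 and -1.10 (adjusted p = 0.047) without colon control 3. Without colon control 1 Pdgfra also passed (0.30, adjusted p = 0.0418). On arsenic feed 5 were higher and 2 lower in the colon, where 59.1% of all genes were called, 32.8% higher and 26.3% lower. Postn was higher by 1.97 ± 0.15, Thbs1 by 1.89 ± 0.13, Dpt by 0.97 ± 0.19, Lum by 0.78 ± 0.17 and Pdgfra by 0.42 ± 0.15. Tgfbi changed by -2.02 ± 0.18 and Grem1 by -0.52 ± 0.22 (adjusted p = 0.05, just under the threshold before rounding). On arsenic feed the Grem1 call was lost in 9 of 14 fits that left out 1 library (adjusted p = 0.0511 to 0.138) and held without ileum arsenic 15, cecum arsenic 11, 13 or 15 or colon arsenic 11. It was also lost without the filter (0.0554), with the stricter filter (0.0512) and in the fit of all libraries (0.114). The Pdgfra call was lost without ileum arsenic 13 or 15, cecum arsenic 11, 13 or 15 or colon arsenic 11 (adjusted p = 0.0578 to 0.137). It was also lost with RLE (0.0509) or upper-quartile scaling (0.0503), with DESeq2 (0.0644), without the filter (0.0975) and in the fit of all libraries (0.0542). On control feed the Clec3b call was lost without ileum control 2, 3 or 5 or colon control 2 or 3 (adjusted p = 0.0745 to 0.101) and in the fit of all libraries (0.143). Without ileum arsenic 13 and 15, Pdgfra stood at 0.13 (adjusted p = 0.375). Dcn did not pass on either feed, at 0.14 ± 0.29 on arsenic and -0.29 ± 0.16 on control feed. Lum on control feed, at 0.13 ± 0.18, and Clec3b on arsenic feed, at 0.39 ± 0.27, did not pass either.

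**Figure D4:**
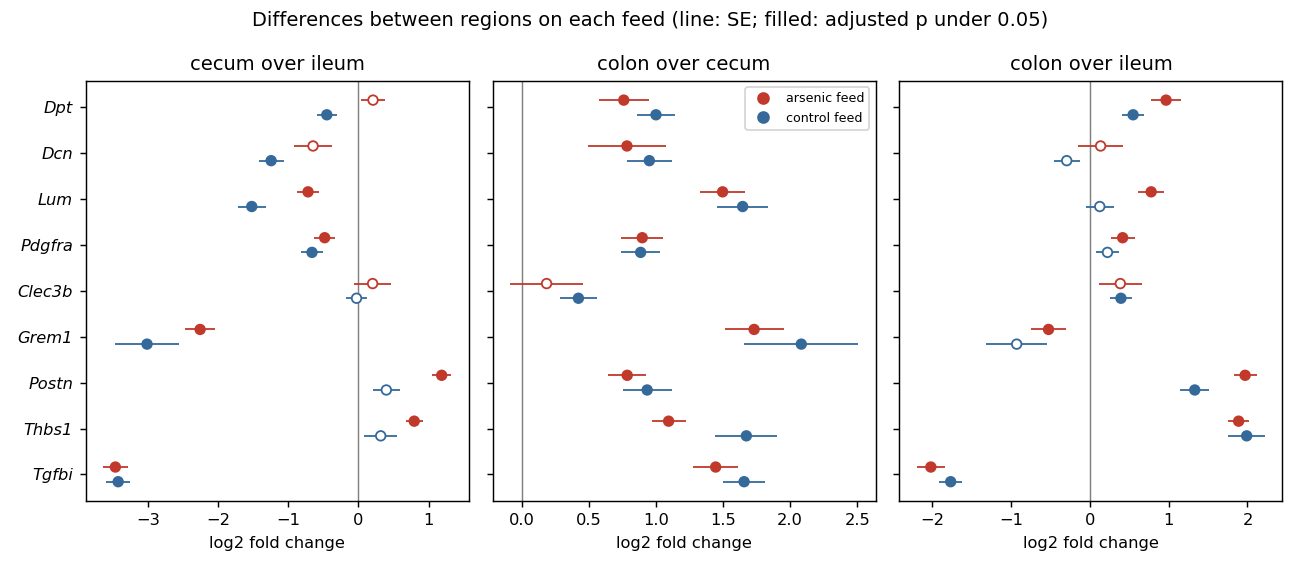
Log2 fold change between regions of each gene, on arsenic feed (red) and control feed (blue); lines are SE and filled points have an edgeR adjusted p under 0.05. All points for colon over cecum lie right of 0, with 8 filled points on arsenic and 9 on control feed, and Grem1 and Tgfbi lie far to the left in cecum over ileum.

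Read by region, Tgfbi and Grem1 ran from ileum to colon to cecum on both feeds, with the ileum and colon of Grem1 overlapping. Postn and Thbs1 were highest in the colon on both feeds. Lum and Pdgfra were lowest in the cecum on both feeds, with overlapping levels in the control ileum and colon. Other cell types differed between the regions too. Of all genes, 38.6% were called between colon and cecum on arsenic and 47.2% on control feed. The shares were 52.2% on arsenic and 54.9% on control feed between cecum and ileum. They were 59.1% on arsenic and 52.2% on control feed between colon and ileum. Between colon and cecum, 8 of 8 smooth muscle markers were higher in the colon on each feed, with sums of 6103.6 to 9237.3 CPM in the arsenic colon against 2917.5 to 4916.6 CPM in the arsenic cecum, and 4995.5 to 7314 CPM in the control colon against 2537.7 to 3509 CPM in the control cecum. Of 28 other fibroblast genes, 14 were higher and 0 lower in the colon than in the cecum on arsenic feed, and 21 higher and 1 lower on control feed. Which cell types gave the reads of these 28 genes was not tested. Among them, Dpp4 was at 1245 ± 89.8 CPM in the control ileum, against 21.5 ± 1.6 CPM in the control cecum. Of 8 epithelial markers, 1 was higher and 1 lower in the colon on arsenic feed, and 0 higher and 6 lower on control feed. Endothelial markers were higher in 5 of 8 on arsenic and 7 of 8 on control feed, and pericyte markers in 4 of 6 and 5 of 6. On each feed 6 of 6 glial and neuronal and 3 of 3 interstitial cell of Cajal markers were higher, and 0 of 5 mesothelial markers were called. Between cecum and ileum on control feed, 6 of 8 epithelial markers were higher and 1 lower. Smooth muscle markers were lower in 5 of 8, mesothelial in 5 of 5 and adipocyte in 5 of 6. Pericyte markers were lower in 4 of 6, glial and neuronal in 3 of 6 and lymphocyte in 3 of 6. Interstitial cell of Cajal markers were lower in 2 of 3, and 1 of 8 endothelial and 1 of 6 macrophage markers were higher. On arsenic feed 3 epithelial markers were higher and 1 lower, and 2 smooth muscle markers higher and 1 lower. Mesothelial markers were lower in 5 of 5 and adipocyte markers in 6 of 6. Of 6 pericyte markers 3 were lower and 1 higher, and of 8 endothelial markers 3 were lower and 1 higher. Lymphocyte and macrophage markers were each lower in 2 of 6. Glial and neuronal markers were lower in 1 of 6, and interstitial cell of Cajal markers in 1 of 3. Between colon and ileum, smooth muscle markers were higher in 8 of 8 on arsenic and 4 of 8 on control feed, and endothelial markers in 3 of 8 on arsenic and 8 of 8 on control feed. Glial and neuronal markers were higher in 6 of 6 on each feed. Mesothelial markers were lower in 2 of 5 on arsenic and 5 of 5 on control feed, and adipocyte markers in 1 of 6 on arsenic and 4 of 6 on control feed. The part of the cell type markers in the regional differences of the 9 genes was not tested. With upper-quartile scaling the median of all genes for cecum over ileum on control feed was -0.19, against -0.03 with the main scaling, and the split was 3663 higher and 5859 lower, against 4800 and 4466. For colon over cecum on control feed the split was 4458 higher and 2719 lower, against 3704 and 4266. The same 6 genes and all 9 genes were called in these 2 comparisons under that scaling.

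Within groups, Dpt, Dcn, Lum and Clec3b varied together across libraries. Deviations of log2 CPM from the group mean were correlated over the 27 libraries, as a description only, since genes of a library share its scaling and its tissue sample. The spread of these genes was largest in the arsenic ileum, where arsenic 13 and 15 were low. There the SD was 45.5% of the mean for Dcn and 40.6% for Clec3b, against at most 21.2% and 24.1% in the other groups. The part of these libraries in the values of r was not tested. Pearson's r was 0.93 between Dcn and Clec3b, 0.92 between Dpt and Dcn, 0.91 between Dpt and Clec3b and 0.86 between Dpt and Lum. Lum and Postn were at 0.86, Grem1 and Postn at 0.80 and Grem1 and Thbs1 at 0.67. Grem1 was at 0.65 with Lum, 0.36 with Dpt, 0.31 with Dcn and 0.24 with Clec3b. Pdgfra lay between 0.37 and 0.71 with all others except Tgfbi. Tgfbi had r of -0.27 to -0.01 with the other 8. With Epcam, the epithelial adhesion gene, Tgfbi had r = 0.44, while the other 8 lay between -0.54 and -0.07. With Acta2, the smooth muscle actin gene, Lum and Postn had r of 0.62 and 0.61 and Thbs1 and Tgfbi of 0.03 and -0.07. With the mesothelial gene Msln, Dcn, Clec3b and Dpt had r of 0.81, 0.74 and 0.71.

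**Figure D5:**
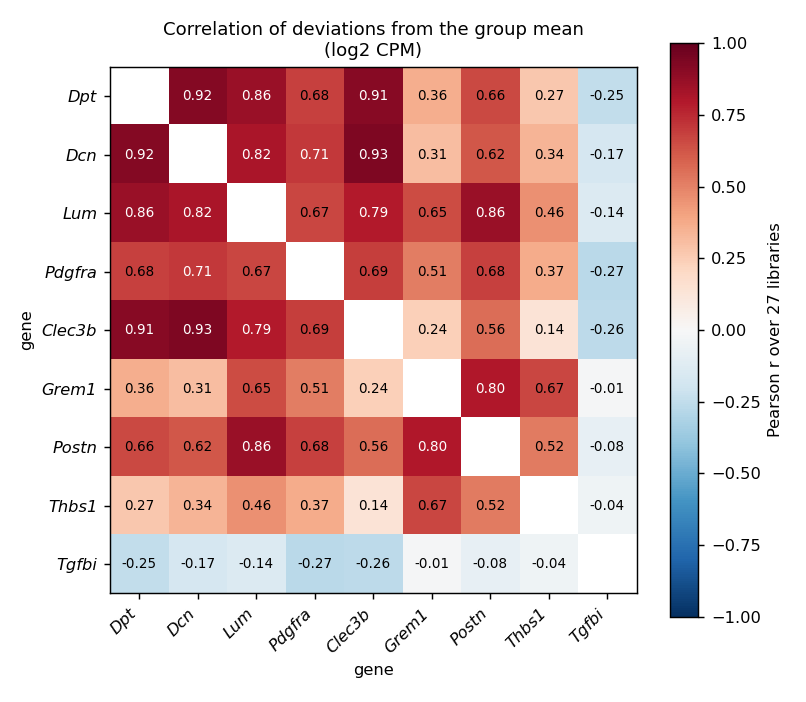
Pearson's r of within-group deviations of log2 CPM between the 9 genes over 27 libraries, from blue (negative) to red (positive). Dpt, Dcn, Lum and Clec3b form a block with r of 0.79 to 0.93, Grem1 and Postn reach 0.80, and the Tgfbi row and column are between -0.27 and -0.01.

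Among other genes whose mean level reached 5 CPM, those most like each of the 9 were found in the same way over the 27 libraries. Dcn was closest to Rarres2 (r = 0.96), Cd34 and Efemp1 (0.95 each), and Dpt to Rarres2 (0.92), Igfbp4 (0.89) and Cd34 (0.88). Clec3b was closest to Igfbp4 (0.93), Mfap5 (0.9) and Pcolce (0.88), Lum to Ogn (0.89), Cfl2 (0.87) and Fstl1 (0.86), and Pdgfra to Ecm1, Col3a1 (0.91 each) and Col6a3 (0.89). Grem1 was closest to Clic4 (0.92), Ly6g and Thbs4 (0.9 each), and Postn to Cfl2 (0.92), Pam (0.88) and Tppp3 (0.87). Thbs1 was closest to Hipk3, Zdhhc17 (0.83 each) and Klhl24 (0.81). The highest values for Tgfbi were lower, at 0.73 with Add1 and 0.69 with Ap2a1.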

How the data were processed

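Reads per gene were counted in 27 libraries. The deposited table holds raw read counts, and per the submitters' processing notes HISAT2 2.1.0, SAMtools, HTSeq 0.6.0 and DESeq2 1.6.3 were used. The genome build, annotation and strand setting of the counting are not given in the sources used here. The series' design text speaks of rats, while every sample is labelled as mouse. Counts were scaled by TMM and tested with edgeR 4.0.16 (quasi-likelihood test, R 4.3.3, limma 3.58.1) after a filter for a minimum count of 10 and a total of 15. The log2 CPM used for the correlations had a prior count of 2. Each arsenic comparison was fitted on the libraries of its region, each region comparison on the 13 control or 14 arsenic libraries, and the interactions on all 27. DESeq2 1.42.0, RLE and upper-quartile scaling, other filters, shared fits and left-out libraries were alternatives. Symbols came from a table of gene names by Ensembl identifier, and 1 of 206 genes on the related lists was not found. Exon lengths are of GENCODE vM21. The members and lists were chosen with earlier results of these data known. For arsenic feed, up to 3 called genes of each list and direction were named, those with the smallest p, and a few genes that this rule or the likeness measure would name are not reported here. No libraries agreed within sampling noise. Figures were drawn with matplotlib 3.10.9 in Python 3.11.15.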

Additional observations from a re-analysis of the deposited data

Results flagged for a closer look

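In 3 of the 54 sets of libraries checked (9 genes in 6 groups), 1 library lay far from the rest of its group, and chance flags about 1 in 20 sets. Clec3b was at 32.2 CPM in ileum control 1 and at 20.9 to 22.3 CPM in the other ileum control libraries. Pdgfra was at 29.8 CPM in cecum control 2 and at 21.1 to 22.4 CPM in the other cecum control libraries. Grem1 was at 11.2 CPM in cecum arsenic 15 and at 21.7 to 25.8 CPM in the other cecum arsenic libraries. The arsenic effect differed between cecum and ileum for Lum, by a log2 difference of 0.80 (edgeR adjusted p = 0.042), and for Postn, by 0.79 (edgeR adjusted p = 0.0297).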

How the results depend on the processing

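In 1 fit of all 27 libraries, the count of called genes among the 9 was 1 for arsenic feed in the ileum (Tgfbi) and 0 in the cecum, against 0 and 7 in the fits of 1 region. For the difference in arsenic effect between cecum and ileum it was 1 without the filter on low counts (Postn) and 0 without ileum arsenic 13 and 15, a setting chosen after seeing the data, against 2 in the main fit. Leaving out each library in turn gave 0 to 0 for arsenic feed in the ileum, 6 to 8 in the cecum and 0 to 0 in the colon. For the regions it gave 5 to 7 (cecum and ileum), 8 to 9 (colon and cecum) and 4 to 7 (colon and ileum) on control feed, and 6 to 7, 7 to 8 and 5 to 6 on arsenic feed. For the interactions it gave 0 to 3, 0 to 0 and 0 to 0. None of the 50 called tests changed direction in any setting run, and 19 of the 58 others did in at least 1, all with a log2 change of 0.39 or smaller in size. Of 671 values of the called tests with a library left out, 58 lost the call, and of 341 values under the other settings, 23 did. Without scaling factors, 2 of 54 group levels moved by more than 1 SD. The causes were not tested.

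The labels do not say whether libraries with equal numbers came from the same mouse. Of 24 pairs of libraries with the same number, 15 had correlated deviations (r over 0.1, range -0.119 to 0.296). In 12 of the 24 pairs, the own number correlated best among the 4 or 5 libraries of the other region on that feed. A random pick among 4 or 5 libraries would on average find the own number in fewer than 12 of the 24 pairs. These values do not decide whether mice were shared. The main fits used no pairing because the labels state none, and the replicate block was run as an alternative. If mice were shared, the main region p-values leave that pairing out. With the replicate block, the counts were 6, 9 and 4 on control feed, 6, 7 and 7 on arsenic feed and 2, 0 and 0 for the interactions; Clec3b (colon over ileum, control feed, 0.38, edgeR adjusted p = 0.06) and Dcn (colon over cecum, arsenic feed, 0.75, edgeR adjusted p = 0.0502) missed the threshold. No paired analysis was possible for the feeds because arsenic and control libraries carry different numbers.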
